A study of Mus musculus with 99 samples.

Results

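The genes followed here are 10 members of the fibroblast growth factor (FGF) pathway, chosen by name with their RNA levels and peak calls in these libraries already known. They are 10 of 55341 gene names in the count table: the ligand genes Fgf4, Fgf5, Fgf8 and Fgf15, and 6 genes that ERK signalling induces, Spry1, Spry2, Spry4, Dusp6, Etv4 and Etv5. Their RNA was read in all 16 RNA libraries, and peaks of 12 antibodies were looked for within 2.5 kb of each gene in 70 ChIP-seq lists.

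FGF ligands bind receptor tyrosine kinases and signal through RAS, RAF and MEK to the kinase ERK. ERK then turns on its own brakes, among them the Sprouty proteins, which act on the cascade upstream of ERK, and the phosphatase DUSP6, which removes phosphates from ERK, together with the ETS transcription factors ETV4 and ETV5. In mouse embryonic stem cells (ESCs) FGF4 is the main ligand that the cells make themselves, and ERK activity drives them away from the naive state. Fgf5, Fgf8 and Fgf15 are known from the post-implantation embryo. Polycomb repressive complex 1 (PRC1), with RING1A or RING1B as its catalytic subunit, ubiquitinates histone H2A (the mark H2AK119ub1), and PRC2, with EED and SUZ12, methylates histone H3 (the mark H3K27me3). Both complexes sit at CpG-rich promoters of silent developmental genes.

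The Parental line is ROSA26::creERT2 RING1A-/-; RING1Bfl/fl ESCs, in which 4-hydroxytamoxifen (OHT) activates Cre and deletes RING1B, so that RING1A was missing in its control cells too. RING1B WT and RING1B I53S are clonal derivatives that carry a stably integrated FLAG-HA RING1B under the pCAG promoter, either unchanged or with a substitution that abolishes its ubiquitin ligase activity, so that after OHT only this copy was left. Eed fl/fl cells are separate ESCs, listed by the study as clones, which lose EED with OHT. Cells received 0.5 µM OHT (+OHT) or the ethanol vehicle (-OHT) for 72 h, with 48 h for some MTF2 and JARID2 libraries, and MTF2 KO derivatives of the 3 RING1B lines were used for SUZ12 and H3K27me3 only. All were grown in serum and LIF medium with inhibitors of MEK1/2 and GSK3. A drug against the step just above ERK was thus present in every group, controls included. RNA was measured in 2 libraries per group, whose labels do not say that they came from separate cultures, so that p-values measure the spread between libraries, which may be technical.

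The 12 RNA libraries of the RING1B lines held 8140106 to 12743460 counted reads and the 4 of Eed fl/fl cells 6957248 to 9443814. Levels are given as CPM, the count of a gene scaled to the total count of its library and its TMM factor. Summed over 8 ESC markers they were 3354 to 4029 in Parental -OHT and 1587 to 1687 in Parental +OHT libraries, and no ESC marker was at 0 in any library. With OHT in Parental cells 3 of the 8 ESC markers, Zfp42, Sox2 and Prdm14, fell past the thresholds given below. Also 2 of 7 primed epiblast, 6 of 8 primitive endoderm, 5 of 7 tested trophoblast and 2 of 3 tested fibroblast markers rose. By the same rule 1.83% of all tested genes fell and 15.1% rose. At an adjusted p under 0.05 alone 7 of the ESC markers were lower, beside 12.4% of all tested genes. In RING1B I53S cells 2 ESC markers fell, beside 1.04% of tested genes. There 2 primed epiblast, 6 primitive endoderm, 4 trophoblast and 1 fibroblast markers rose, beside 12.8%. A marker near 0 without OHT could be tested through +OHT libraries alone, so nothing is read from the counts of rises. The 8 primitive endoderm markers summed to 459.9 and 629.4 CPM in Parental -OHT and to 844 and 849 CPM in Parental +OHT libraries, with 2 and 3 of them at 0 without OHT. The 8 trophoblast markers rose over the same groups from 165.3 and 196.5 to 436.1 and 443.5 CPM, and 7 fibroblast markers from 11.87 and 14.01 to 45.72 and 48.42 CPM, with 3 or 4 of the fibroblast markers at 0 in each of these 4 libraries. Their part in the changes given below was not tested, and in bulk RNA fewer cells of a type and less RNA per cell cannot be told apart. The 3 replicate 2 libraries with OHT of the RING1B lines stood apart in immediate-early RNAs. Fos was at 979.5 to 1261 CPM in them and at 5.69 to 125 CPM in the other 9 libraries, and Egr1 at 265.4 to 483 against 3.73 to 19.2 CPM. Ring1, which encodes RING1A, was at 1.03 to 4.02 CPM in the 12 libraries. Total Rnf2 RNA, which encodes RING1B, was 1.47-fold lower in Parental cells with OHT (adjusted p = 0.0346), but counts over the whole gene do not show whether the floxed exons were gone. Eed was at 255.3 and 172.9 CPM in Eed fl/fl -OHT and at 67.1 and 43.7 CPM in +OHT libraries, a difference of -1.95 log2 units ± 0.315 (SE, n = 2 per group) with an adjusted p of 0.0766.

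**Figure D1:**
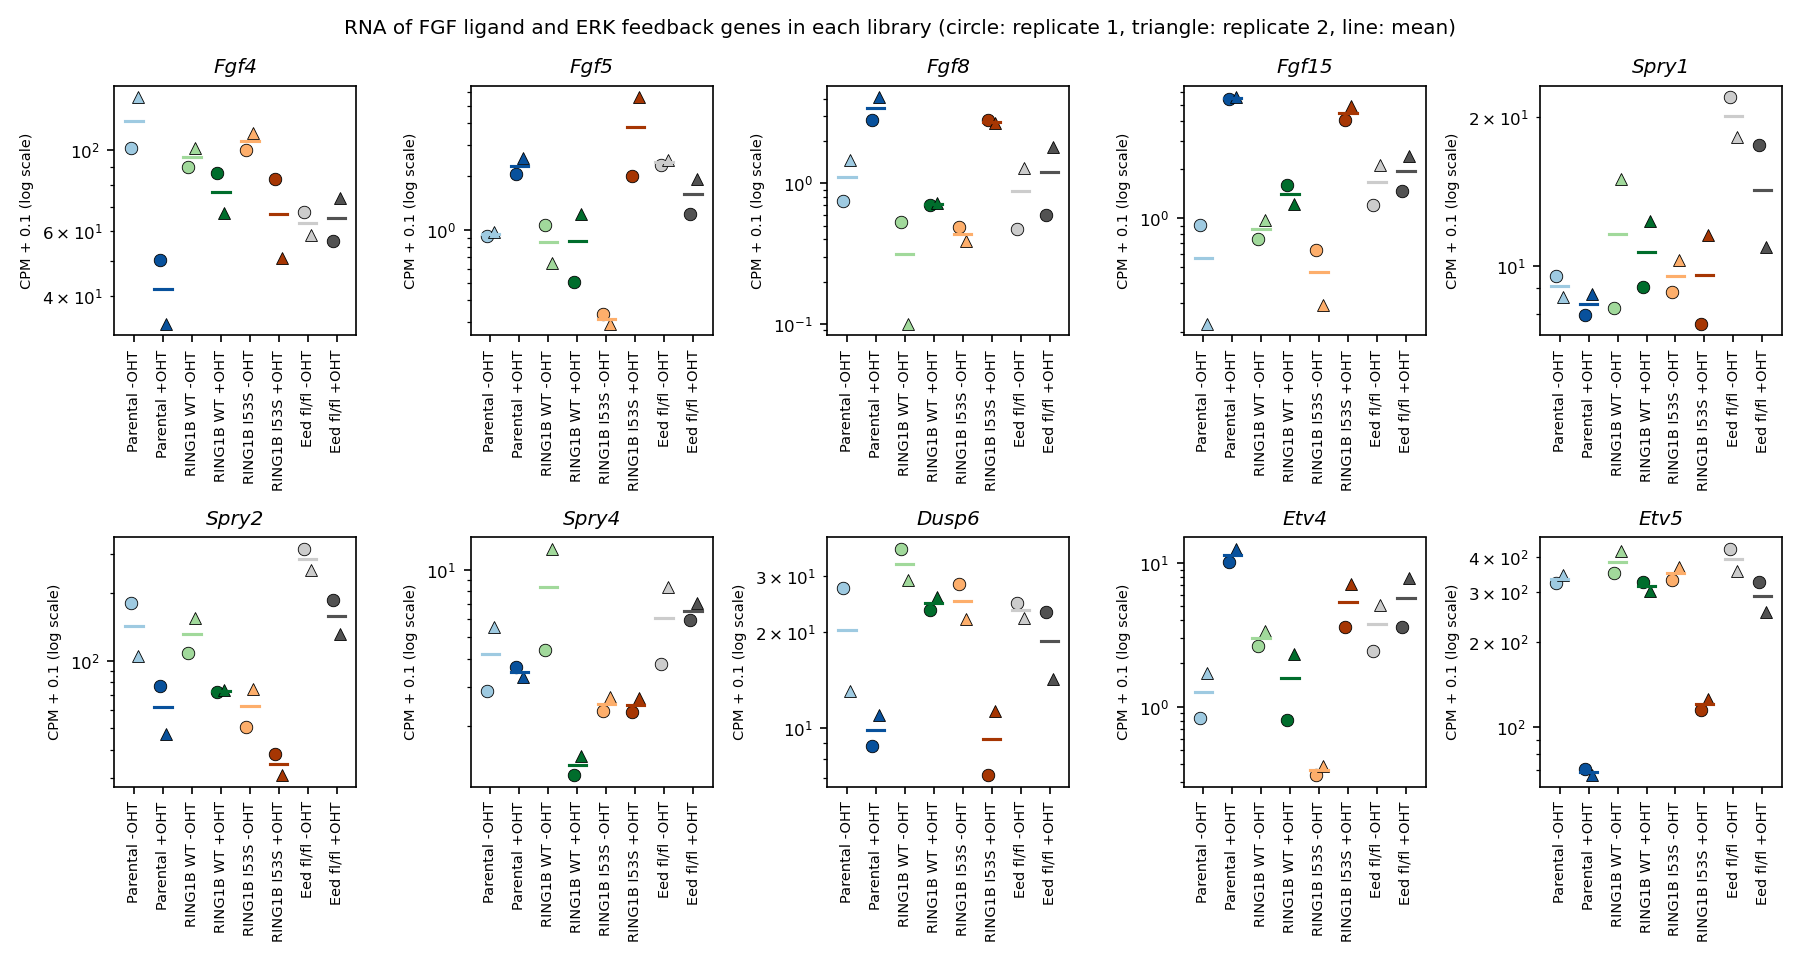
CPM of each gene (vertical axis, log scale, 0.1 added) in each of the 16 libraries, by group (horizontal axis), with a line at the mean of the 2 libraries. Fgf15 and Etv4 sit higher in Parental +OHT and RING1B I53S +OHT than in their -OHT groups, and Etv5 sits lower. In RING1B WT the groups lie closer together for Fgf15 and Etv5, and Etv4 sits lower with OHT.

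Expressed per kilobase of exon, the 10 genes covered a wide range in Parental -OHT cells. Etv5 (81.8 CPM per kb) and Spry2 (68.6) were at the top, followed by Fgf4 (37.5), Dusp6 (6.46) and Spry1 (3.09). Spry4 (0.863), Fgf8 (0.745), Etv4 (0.377), Fgf5 (0.336) and Fgf15 (0.153) were at the bottom. In this order the ranges of Etv5 and Spry2 over the 2 libraries overlapped, as did those of Spry4 and Fgf8, of Fgf8 and Etv4 and of Etv4 and Fgf5, and the other neighbours did not overlap. Thus 1 ligand gene was well expressed and the other 3 were near silent, and of the closely related pair Etv4 and Etv5 the second carried nearly all RNA.

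Loss of RING1B in Parental cells changed 5 of the 10 genes past the thresholds used throughout, an adjusted p under 0.05 and a change of at least 1.5 log2 units (edgeR quasi-likelihood test, adjusted over all 18154 genes tested). Fgf8, Fgf15 and Etv4 rose and Fgf4 and Etv5 fell. Of all tested genes, 15.1% rose and 1.83% fell by the same rule. Since the genes were picked with these levels known, nothing is read from their count. Without the 3 replicate 2 libraries with OHT 3 of the 5 calls stood, those of Fgf15, Etv4 and Etv5.

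Among the ligand genes, Fgf15, whose product is the FGF19 counterpart of the mouse and acts in the embryo and in the gut, was at 0.815 and 0.124 CPM in Parental -OHT libraries and at 5.30 and 5.46 CPM in +OHT libraries. The groups were far apart, with a 10.2-fold rise (3.34 ± 0.593 log2, SE, n = 2 per group, adjusted p = 0.000227). The size rested on the -OHT libraries, with 10 and 1 reads, and was 5.28 log2 without -OHT replicate 1 and 2.67 log2 without -OHT replicate 2, with the call kept. Fgf8, a signal of gastrulation and of brain and limb patterning, was at 0.652 and 1.36 CPM without OHT and at 2.73 and 4.00 CPM with OHT. Its groups did not overlap either, and the difference was 1.78 ± 0.630 log2 (n = 2, adjusted p = 0.0344), a call that was lost when any 1 of the 4 Parental libraries was left out (adjusted p 0.0506 to 0.242). Fgf5, a marker of the primed epiblast, was at 0.815 and 0.865 CPM without OHT and at 1.96 and 2.44 CPM with OHT. That is higher in both libraries, but the 1.38 ± 0.646 log2 difference (n = 2) had an adjusted p of 0.107.

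Fgf4 went the other way. It was at 101 and 138.6 CPM in Parental -OHT libraries and at 50.2 and 33.5 CPM in +OHT libraries, a 2.85-fold fall (-1.51 ± 0.249 log2, n = 2, adjusted p = 0.000111). The fall lay just past the fold threshold, and it was -1.30 log2 without Parental -OHT replicate 2 and -1.25 log2 without Parental +OHT replicate 2, with adjusted p of 0.00192 and 0.00617. It moved with the ESC markers, whose part in it was not tested. So the 3 ligand genes that were near silent were higher in both +OHT libraries than in either -OHT library, and the expressed ligand gene was lower. The 3 near silent genes passed the filter on low counts only through +OHT libraries, so nothing is read from their shared direction. With no filter Fgf8 and Fgf15 kept their calls (1.78 and 3.34 log2, adjusted p = 0.017 and 1.67e-07), and Fgf5 was at 1.38 log2 (adjusted p = 0.109).

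The ETS factor genes split in the same manner. Etv4 was at 0.733 and 1.61 CPM without OHT and at 10.2 and 12.5 CPM with OHT, a 10.0-fold rise (3.32 ± 0.515 log2, n = 2, adjusted p = 6.1e-05). Etv5 was at 324.3 and 346.6 CPM without OHT and at 70.9 and 67.1 CPM with OHT, a 4.86-fold fall (-2.28 ± 0.176 log2, n = 2, adjusted p = 2.5e-08). Per kilobase Etv5 RNA still exceeded Etv4 RNA in Parental +OHT cells, with 16.8 against 3.65 CPM per kb.

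The feedback inhibitors gave smaller differences. Spry2 was at 180.9 and 105.3 CPM without OHT and at 77.2 and 47.0 CPM with OHT, which is lower in both libraries (-1.21 ± 0.274 log2, n = 2, adjusted p = 0.00201) without reaching the fold threshold. Dusp6 was at 27.5 and 12.98 CPM without OHT and at 8.71 and 10.9 CPM with OHT (-1.06 ± 0.313 log2, n = 2, adjusted p = 0.0125), and -OHT replicate 2 lay close to the +OHT libraries. Both passed the fold threshold without Parental -OHT replicate 2, with -1.57 log2 for Spry2 and -1.52 log2 for Dusp6, and Spry2 also did without Parental +OHT replicate 1 (-1.61 log2). Other libraries moved them the other way. Without -OHT replicate 1 Dusp6 was at -0.43 log2 (adjusted p = 0.361) and Spry2 at -0.79 log2 (adjusted p = 0.0516), without +OHT replicate 1 Dusp6 was at -0.90 log2 (adjusted p = 0.121), and without +OHT replicate 2 Spry2 was at -0.89 log2 (adjusted p = 0.0581). Spry1 (-0.13 ± 0.320 log2, adjusted p = 0.796) and Spry4 (-0.24 ± 0.469 log2, adjusted p = 0.729) differed by less than their standard errors, with n = 2 per group.

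**Figure D2:**
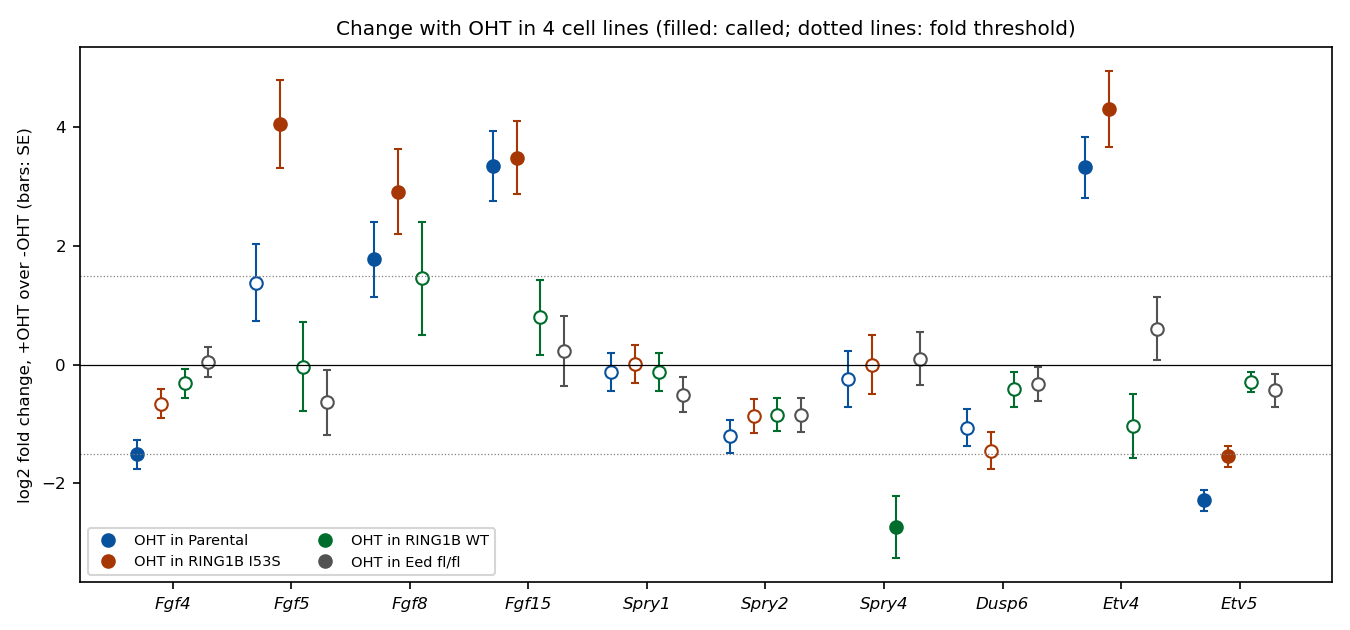
Log2 fold change of +OHT over -OHT (vertical axis) with its standard error for each gene (horizontal axis) in 4 lines, filled where the gene passed both thresholds, with n = 2 libraries per group. Parental and RING1B I53S points lie on the same side of 0 for every gene but Spry1, which is close to 0 in both, and in RING1B WT the Spry4 point alone is filled.

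RING1B I53S cells with OHT hold a RING1B that cannot ubiquitinate H2A, so these genes were read there without the catalytic activity. None of the 10 genes had a RING1B peak in these cells, as given below, so loss of activity and loss of binding cannot be told apart. Of the 10 genes, 4 rose (Fgf5, Fgf8, Fgf15 and Etv4) and 1 fell (Etv5), beside 12.8% and 1.04% of all tested genes. Fgf5 was at 0.232 and 0.192 CPM without OHT and at 1.91 and 5.51 CPM with OHT, which is clear of overlap although the +OHT libraries differed widely from each other (4.05 ± 0.747 log2, n = 2, adjusted p = 0.000463). Etv4 was at 0.232 and 0.288 CPM without OHT and at 3.51 and 7.06 CPM with OHT (4.31 ± 0.634 log2, n = 2, adjusted p = 5.33e-05). Fgf15 was at 0.541 and 0.192 CPM without OHT and at 3.91 and 4.82 CPM with OHT (3.48 ± 0.612 log2, n = 2, adjusted p = 0.000296). All 3 genes were thus higher in both +OHT libraries than in either -OHT library of this line. The size of the rise moved with single libraries, to 3.07 log2 for Fgf5 and 3.69 log2 for Etv4 without +OHT replicate 2 and to 4.42 log2 for Fgf15 without -OHT replicate 1, and the calls stood.

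Fgf8 in the same line was at 0.386 and 0.288 CPM without OHT and at 2.71 and 2.58 CPM with OHT (2.91 ± 0.713 log2, n = 2, adjusted p = 0.00463, and 0.0508 without -OHT replicate 2). Etv5 was at 332.3 and 370.1 CPM without OHT and at 114.9 and 125.6 CPM with OHT (-1.55 ± 0.171 log2, n = 2, adjusted p = 2.86e-06), close to the fold threshold, and it came to -1.48 log2 without RING1B I53S -OHT replicate 2 or without +OHT replicate 1. Fgf4 was at 99.9 and 111.1 CPM without OHT and at 83.2 and 50.5 CPM with OHT. That is lower in both libraries, by 0.66 ± 0.243 log2 (n = 2), with an adjusted p of 0.0504. Dusp6 (-1.45 ± 0.313 log2, n = 2, adjusted p = 0.00176) and Spry2 (-0.86 ± 0.278 log2, n = 2, adjusted p = 0.0256) were lower without reaching the fold threshold, and Dusp6 reached it without -OHT replicate 2 (-1.63 log2) or +OHT replicate 2 (-1.85 log2). Spry2 was at -0.56 log2 (adjusted p = 0.278) and -0.73 log2 (adjusted p = 0.127) without the same libraries. Spry1 and Spry4 were at 0.01 ± 0.315 and -0.01 ± 0.497 log2 (n = 2).

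With OHT, I53S and Parental cells were compared directly. No gene of the 10 passed both thresholds with edgeR or DESeq2, beside 0.16% of all tested genes in the edgeR fit. An unadjusted p under 0.05 was found for 4 of the 10, beside 901 of all 18154 genes. Etv5, at 114.9 and 125.6 CPM against 70.9 and 67.1 CPM in Parental +OHT libraries, was the only one with an adjusted p under 0.05 (0.80 ± 0.171 log2 higher in I53S, n = 2, adjusted p = 0.0469). The difference between the OHT effects in these 2 lines, tested as an interaction, passed for 0 of the 10 genes with edgeR and with DESeq2 and for 0% of all 18154 genes with edgeR, although 488 genes, 3 of the 10 among them, had an unadjusted p under 0.05. Its largest value among the 10 was 2.67 ± 1.02 log2 for Fgf5 (n = 2 per group, adjusted p = 1).

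In RING1B WT cells Spry4 fell and none of the 10 genes rose, beside 0.0386% and 1.34% of all tested genes. Etv5 was at 350 and 421.1 CPM without OHT and at 327.2 and 303.4 CPM with OHT (-0.29 ± 0.167 log2, n = 2, adjusted p = 0.42). Etv4 was at 2.57 and 3.29 CPM without OHT and at 0.705 and 2.24 CPM with OHT, lower in both libraries by 1.03 ± 0.538 log2 (n = 2, adjusted p = 0.363). Fgf15 was at 0.642 and 0.878 CPM without OHT and at 1.51 and 1.12 CPM with OHT (0.80 ± 0.638 log2, n = 2, adjusted p = 0.595). Fgf8 was at 0.428 and 0 CPM without OHT and at 0.604 and 0.623 CPM with OHT. None of the differences of these 4 genes passed the test.

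Spry4, which encodes a Sprouty inhibitor of the cascade, was the exception in RING1B WT cells, at 4.28 and 12.3 CPM without OHT and 1.11 and 1.37 CPM with OHT (-2.74 ± 0.520 log2, n = 2, adjusted p = 0.00818). The high value belongs to RING1B WT -OHT replicate 2, which was above every other library of the 16. Without this library the difference was -1.79 log2 with an adjusted p of 0.232, and without either +OHT library the adjusted p was 0.0612 or 0.0911, so the call stood only when -OHT replicate 1 was the library left out.

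With OHT, the RING1B WT and Parental lines differ in whether any RING1B is left. Relative to Parental +OHT, RING1B WT +OHT libraries had more Etv5 (2.19 ± 0.176 log2, n = 2, adjusted p = 1.4e-07) and less Etv4 (-2.97 ± 0.504 log2, adjusted p = 0.000497), Fgf8 (-2.43 ± 0.676 log2, adjusted p = 0.0166) and Fgf15 (-2.01 ± 0.532 log2, adjusted p = 0.0125). So 1 gene was higher and 3 were lower, beside 1.06% and 7.62% of all tested genes, and without the 3 replicate 2 libraries with OHT only the calls of Etv4 and Etv5 stood. Fgf4 and Dusp6 were higher by 0.87 ± 0.247 and 1.32 ± 0.314 log2 (n = 2, adjusted p = 0.0182 and 0.00624), short of the fold threshold. The calls of Etv4 and Etv5 stood when any 1 library was left out, with Etv4 at -2.33 log2 without RING1B WT +OHT replicate 1 and -3.98 log2 without replicate 2. That of Fgf15 was lost without any 1 of the 4 libraries, and that of Fgf8 without any but Parental +OHT replicate 1. The interaction test of the OHT effect between these lines passed for Etv4 and Etv5, beside 1.54% of all tested genes. Etv4 was at -4.35 ± 0.743 log2 in WT minus Parental (n = 2 per group, adjusted p = 0.00317). For Etv5 the value was 1.99 ± 0.239 log2 (adjusted p = 0.000113). The test did not pass for Fgf8 (-0.32 ± 1.36 log2, adjusted p = 0.953) or Fgf15 (-2.55 ± 0.895 log2, adjusted p = 0.158).

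RING1B I53S and RING1B WT cells with OHT carry the same construct but for the substitution. Fgf5 (2.32 ± 0.652 log2), Fgf8 (2.09 ± 0.683 log2), Fgf15 (1.71 ± 0.535 log2) and Etv4 (1.89 ± 0.513 log2) were higher in I53S, with n = 2 and adjusted p of 0.023, 0.0483, 0.0389 and 0.019, and none passed both thresholds as lower, beside 6.02% and 0.6% of all tested genes. With DESeq2 3 of these calls stood, without that of Fgf8 (adjusted p = 0.0586). With only the libraries of these 2 groups in the fit 0 of the 10 genes passed (adjusted p of the 4 genes 0.0522 to 0.0705), and leaving out 1 library at a time gave 0 without RING1B WT +OHT replicate 1, 1 (Dusp6) without RING1B I53S +OHT replicate 2 and 2 (Fgf5 and Etv4) without either of the others. Without the 3 replicate 2 libraries with OHT 1 gene passed, Etv5 (-1.53 log2). Etv5 (-1.39 ± 0.171 log2, adjusted p = 6.06e-05), Dusp6 (-1.42 ± 0.315 log2, adjusted p = 0.00572) and Spry2 (-1.09 ± 0.279 log2, adjusted p = 0.0134) were lower in I53S with smaller fold changes. Spry2 lies in a stretch of chromosome 14, between 100 and 120 Mb, where 31 of 38 tested genes were lower in this comparison, with a median of -0.737 log2 against 0.036 log2 over all tested genes.

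Spry2 was also compared between the lines without OHT. It was at 180.9 and 105.3 CPM in Parental -OHT and at 50.5 and 75.0 CPM in RING1B I53S -OHT libraries, lower by 1.19 ± 0.274 log2 (n = 2, adjusted p = 0.0791), and by 1.52 log2 with an adjusted p of 0.0265 without Parental -OHT replicate 2. It was lower by 0.74 log2 (adjusted p = 0.738) without Parental -OHT replicate 1 and by 0.93 log2 (adjusted p = 0.795) without I53S -OHT replicate 1. None of the 10 genes passed both thresholds in this comparison, beside 0.154% of all tested genes. There 3 had an unadjusted p under 0.05, beside 947 of all 18154 genes. Besides Spry2 these were Etv4 (-2.07 ± 0.748 log2 in I53S against Parental) and Fgf5 (-1.91 ± 0.847 log2), with n = 2. The OHT changes of Etv4 and Fgf5 in I53S cells thus started from lower mean levels than in Parental cells. Spry2 lies on chromosome 14 at 105891947 to 105896819 (minus strand, mm10). The 38 tested genes that start between 100 and 120 Mb of this chromosome had a median of -0.765 log2 in the same comparison, with 31 of them lower, and all 23 between 120 and 140 Mb were lower with a median of -0.979 log2. All tested genes had a median of 0.006 log2. In RING1B WT -OHT against Parental -OHT the median of the 38 genes was 0.086 log2. Spry2 thus moved with its neighbours along the chromosome in the I53S clone, in cells that still had their endogenous RING1B.

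In Eed fl/fl cells none of the 9 genes tested passed both thresholds with edgeR or DESeq2, beside 0.00795% of all 25170 genes tested with edgeR. Of the 9 genes 1 had an unadjusted p under 0.05, beside 1372 of the 25170. Fgf8 was too low to be tested. Fgf15 was at 1.11 and 2.03 CPM without OHT and at 1.37 and 2.33 CPM with OHT (0.23 ± 0.592 log2, n = 2, adjusted p = 0.954). Etv5 was at 427.8 and 357.2 CPM without OHT and at 325.9 and 255.8 CPM with OHT (-0.43 ± 0.279 log2, n = 2, adjusted p = 0.833). Spry2 had the largest difference, from 315.9 and 253.5 to 186.1 and 131 CPM (-0.84 ± 0.287 log2, n = 2, adjusted p = 0.813). Only 2 genes in all passed in this comparison, and the edgeR fit had a larger spread here (coefficient of variation 0.251 against 0.181 for the 12 other libraries). The fit took the libraries as unpaired, although replicate differences were correlated here (r = 0.502). With the replicate number as a block, Spry2 and Etv5 were lower at an adjusted p under 0.05, still short of the fold threshold. The share of all tested genes that passed in that fit is not given here, so nothing is read from these 2 genes. The study lists separate Eed fl/fl clones, and the labels do not say whether replicate numbers mark them.

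RING1B was found at most of these genes before OHT. The list of Parental -OHT cells held a RING1B peak within 2.5 kb of 8 of the 10 genes, beside 21.6% of all tested genes. The peak score is the −log10 p-value that the peak caller gave, it grows with depth, and each condition had 1 library, so scores are given without a test. Etv4 (148.9), Fgf8 (146.5), Fgf5 (142.4), Spry4 (121) and Fgf15 (116.3) had the highest scores, Dusp6 (48.1) and Etv5 (22.9) lower ones, and Spry1 (10.5) lay just above the lowest score kept in the lists, 10. The peak centres of Etv4, Fgf15 and Fgf5 lay 12, 39 and 335 bp from the nearest annotated start. Fgf4 and Spry2 had none. The nearest RING1B peak lay 6.94 kb from Fgf4, at its neighbour Fgf3, and 1369 kb from Spry2.

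In RING1B WT +OHT cells 5 of the 10 genes had a RING1B peak, beside 16.6% of all tested genes. They were Fgf8 (114.4), Fgf15 (108.4), Fgf5 (94.8), Spry4 (67.3) and Etv4 (48.6), those with the highest scores in Parental cells. In Parental +OHT and in RING1B I53S +OHT cells none had a peak, beside 2.95% and 5.03% of all tested genes. PCGF2, a subunit of PRC1, had peaks at 7 genes in Parental -OHT and in RING1B WT +OHT cells, at 0 in Parental +OHT and at 2 in I53S +OHT cells, where Fgf15 scored 15.3 and Fgf8 13.6 against 231.2 and 284.3 in Parental -OHT cells. Of all tested genes, 20.5%, 15.1%, 0.479% and 2.72% had a PCGF2 peak in these lists. CBX7, which reads H3K27me3 in canonical PRC1, gave 7, 1, 5 and 0 genes in Parental -OHT, Parental +OHT, RING1B WT +OHT and RING1B I53S +OHT cells, beside 20.6%, 0.242%, 10.7% and 0.0936% of all tested genes.

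Promoter sequences of RefSeq (GRCm38.p6) were matched to 6 of 9 genes looked up. Those of 4 genes are shown, 3 with a RING1B peak near the start (Fgf5, Dusp6 and Etv5) and Fgf4, which had none. The bases lie 5′ of the transcription start, outside annotated exons, and capitals mark each CG. The RefSeq start of Fgf4 lies inside the longer Fgf4 gene model used for counting, so its bases are intronic there.
Fgf5, chr5:98253934-98254183, plus strand: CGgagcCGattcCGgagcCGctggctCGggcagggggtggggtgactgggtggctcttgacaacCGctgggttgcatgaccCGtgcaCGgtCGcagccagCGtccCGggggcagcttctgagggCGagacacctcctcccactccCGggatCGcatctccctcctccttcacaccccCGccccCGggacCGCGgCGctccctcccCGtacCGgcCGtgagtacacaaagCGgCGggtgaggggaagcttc
Fgf4, chr7:144861136-144861385, plus strand: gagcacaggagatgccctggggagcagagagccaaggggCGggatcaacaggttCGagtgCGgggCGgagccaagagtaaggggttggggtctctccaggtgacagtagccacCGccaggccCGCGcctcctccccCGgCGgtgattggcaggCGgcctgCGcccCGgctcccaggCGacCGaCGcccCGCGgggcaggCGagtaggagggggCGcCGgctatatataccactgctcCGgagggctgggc
Dusp6, chr10:99262981-99263230, plus strand: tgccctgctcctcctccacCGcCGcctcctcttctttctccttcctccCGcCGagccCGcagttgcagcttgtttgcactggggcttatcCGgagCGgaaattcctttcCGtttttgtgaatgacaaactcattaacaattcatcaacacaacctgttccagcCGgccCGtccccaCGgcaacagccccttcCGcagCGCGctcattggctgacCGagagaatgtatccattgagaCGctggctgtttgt
Etv5, chr16:22439720-22439820, minus strand: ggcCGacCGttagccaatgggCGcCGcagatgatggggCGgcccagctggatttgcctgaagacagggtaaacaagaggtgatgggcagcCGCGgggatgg
The 250 bases before the start held 24 CG in Fgf5 and 21 in Fgf4, with G + C contents of 70.8% and 71.2%, and Dusp6 had 16 and Etv5 27. The median over 32851 promoters was 6 CG. Thus the promoter of Fgf4, which had no RING1B peak, was about as rich in CG as that of Fgf5, and 85.2% of all promoters had as many CG or fewer. The letters CCGGAAG, a core that ETS factors such as ETV4 and ETV5 are known to bind, were searched on both strands and occurred in 6.91% of all promoters and in none of these 4.

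**Figure D3:**
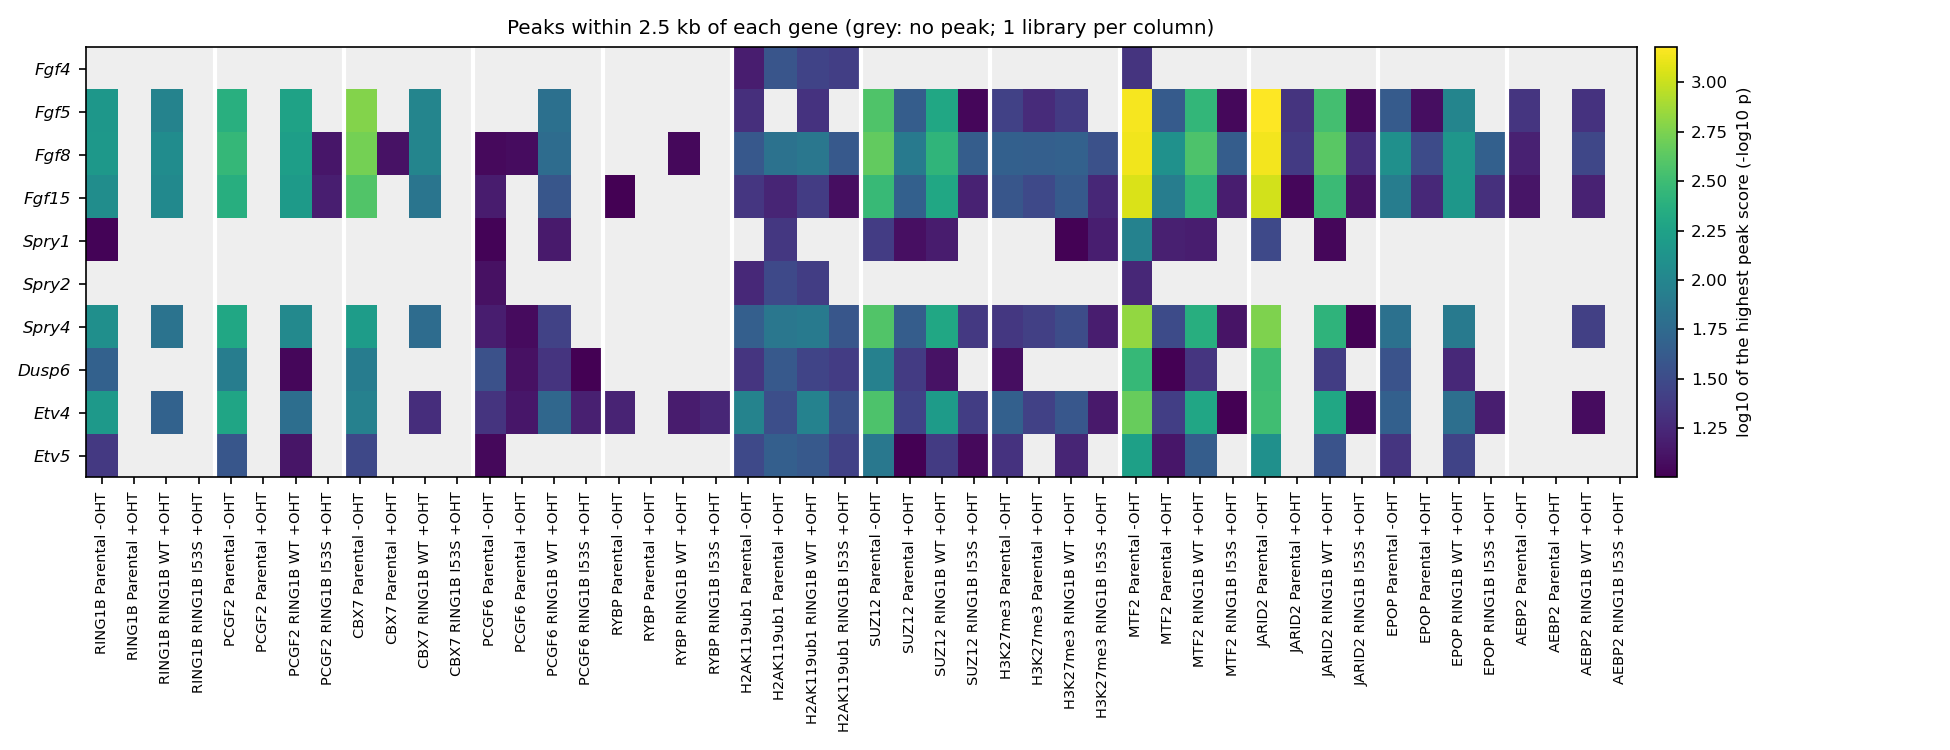
Highest peak score (colour, log10 of −log10 p) within 2.5 kb of each gene (rows) for 12 antibodies in 4 conditions (columns), with replicate 1 shown for MTF2 and JARID2 and grey for no peak. Fgf5, Fgf8, Fgf15, Spry4 and Etv4 carry peaks of most antibodies in Parental -OHT and RING1B WT +OHT cells, and the rows of Fgf4 and Spry2 are nearly empty.

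H2AK119ub1 peaks were near 9 of the 10 genes in Parental -OHT cells, Spry1 being without, beside 29.6% of all tested genes. With OHT the Parental list had a peak near Spry1 and none near Fgf5, so that the count was again 9 with different genes, beside 26.5% of all tested genes. The covered length was shorter at the genes with peaks in both lists, except Dusp6. In RING1B WT +OHT cells it was 9 and in RING1B I53S +OHT cells 7, beside 35.4% and 15.1%. At Etv4 the summed length of the peaks was 22270 bp in Parental -OHT, 6746 bp in Parental +OHT, 21733 bp in RING1B WT +OHT and 5765 bp in RING1B I53S +OHT cells. At Spry4 the lengths were 20286, 1831, 17364 and 2360 bp in the same order. At Fgf8 they were 11754, 2499, 12442 and 3014 bp, and at Fgf15 5377, 2302, 4932 and 904 bp. At these 4 genes the covered length was thus several kb with RING1B or its WT copy, and the highest peak that was left without it or with I53S had its centre within 1 kb of an annotated start.

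Fgf5 had 2398 bp of H2AK119ub1 peaks in Parental -OHT and 2677 bp in RING1B WT +OHT cells and no peak in the other 2 lists. Dusp6 differed from all these, with 1469, 1808, 1455 and 1495 bp. Fgf4 had 2 peaks in Parental -OHT cells with scores up to 14.9, and in each of the other 3 lists its highest peak lay over the start that RefSeq gives, with a score of 37.4 in Parental +OHT cells. Over the whole genome the Parental lists covered 23.29 Mb in 12648 peaks without OHT and 7.95 Mb in 5450 peaks with OHT, and 71.4% of the latter overlapped a peak of the former. The lists are not scaled to the spike-in, so a peak that remains does not show how much H2AK119ub1 was left.

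**Figure D4:**
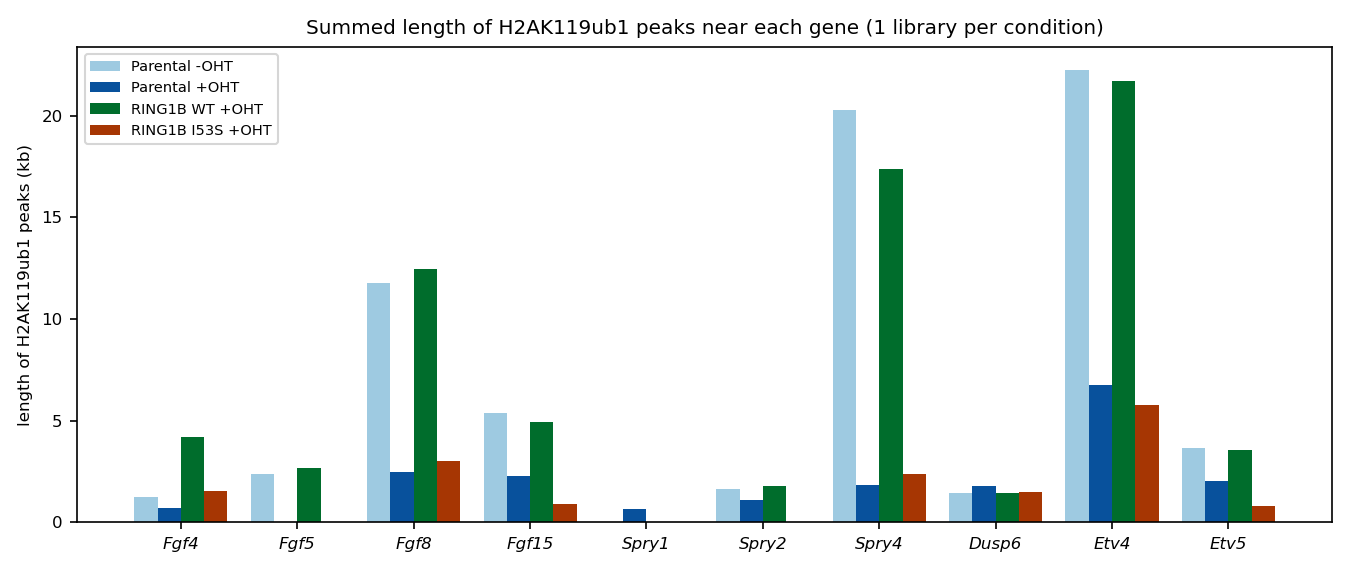
Summed length in kb (vertical axis) of the H2AK119ub1 peaks that reach within 2.5 kb of each gene (horizontal axis), 1 library per condition. The bars of Etv4, Spry4 and Fgf8 are above 11 kb in Parental -OHT and RING1B WT +OHT cells and below 7 kb in Parental +OHT and RING1B I53S +OHT cells, while those of Dusp6 are all below 2 kb.

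PRC2 was also found at these genes. SUZ12 peaks lay near 8 of the 10 in Parental -OHT cells, beside 34.9% of all tested genes, and H3K27me3 peaks near 7, beside 32.5%. SUZ12 stayed at 8 genes in Parental +OHT cells (25.7% of all tested genes) with lower scores (Fgf8 452.8 without and 77.9 with OHT, Etv4 375.5 and 27.5, Fgf5 378.5 and 44.5). In RING1B WT +OHT cells SUZ12 was at 8 genes (Fgf8 266.2) and in RING1B I53S +OHT cells at 6 (Fgf8 44.2), beside 28.8% and 15.9%. H3K27me3 peaks lay near 5 genes in Parental +OHT and in I53S +OHT cells and near 7 in RING1B WT +OHT cells, beside 26.6%, 24% and 32%. Fgf8 had H3K27me3 scores of 46.7, 46.1, 48 and 35.2 in Parental -OHT, Parental +OHT, RING1B WT +OHT and I53S +OHT cells.

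Fgf4 and Spry2 had no SUZ12 or H3K27me3 peak in any list. In the MTF2 KO derivatives, which lack a DNA-binding partner of PRC2, SUZ12 was near 5 genes in Parental -OHT, 1 in Parental +OHT, 5 in RING1B WT +OHT and 0 in RING1B I53S +OHT cells, beside 13.1%, 6.39%, 14.9% and 2.5% of all tested genes. H3K27me3 was near 4, 0, 2 and 0, beside 14.5%, 0.986%, 8.75% and 4.11%. Fgf8 and Fgf15 were the genes with peaks of both in the RING1B WT MTF2 KO cells, with SUZ12 scores of 61.4 and 24.5. The 4 input lists, all from the MTF2 KO cells, had no peak near any of the 10 genes.

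Of the PRC2 partners, JARID2 binds ubiquitinated H2A and MTF2 binds CG-rich DNA. JARID2 peaks lay near 8 genes in Parental -OHT, 6 after 48 h and 3 after 72 h of OHT, beside 38.4%, 12.3% and 5.66% of all tested genes. In RING1B WT +OHT cells the 2 libraries of 72 h gave 8 and 7 genes, beside 21.9% and 21.7%, and in RING1B I53S +OHT cells 5 and 1, beside 4.41% and 1.69%, so that the 2 I53S libraries differed widely. MTF2 peaks were near 8 genes after 48 h and after 72 h of OHT in Parental cells, beside 35.3% and 30.8%. They were near 8 and 7 genes in the RING1B WT libraries of 72 h, beside 33.8% and 30.4%, and near 5 and 7 in those of RING1B I53S, beside 13.9% and 31.6%. At Fgf15 the Parental -OHT lists of MTF2 and JARID2 had scores of 1144 and 1082, against 370.6 and 375.9 in RING1B WT -OHT cells. The MTF2 list of Parental -OHT cells, with a peak near 62.6% of all tested genes, was the only one with a peak near all 10. EPOP peaks were near 7 genes in Parental -OHT and RING1B WT +OHT cells and near 3 in Parental +OHT and RING1B I53S +OHT cells, beside 28.8%, 29%, 12.5% and 13.8% of all tested genes. AEBP2 peaks were near 3, 5, 0 and 0 genes in the same order, beside 4.87%, 5.25%, 0.0275% and 0.0716%.

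PCGF6 and RYBP, which belong to variant PRC1, were read in the same 4 conditions. PCGF6 was near 8 genes in Parental -OHT, 4 in Parental +OHT, 7 in RING1B WT +OHT and 2 in I53S +OHT cells, in the last at Dusp6 (10.1) and Etv4 (15.7), beside 35.7%, 25.5%, 32.8% and 13.1% of all tested genes. RYBP was near 2 genes in Parental -OHT, 0 in Parental +OHT, 2 in RING1B WT +OHT and 1 in I53S +OHT cells, and Etv4 was among them in all 3 lists that had any, with scores of 16.6, 14.7 and 17.1. Of all tested genes, 15%, 0.286%, 5.97% and 4.2% had a RYBP peak. Over all 70 antibody lists Fgf8 had a peak in 56, Fgf15 and Etv4 in 53, Spry4 in 46 and Fgf5 in 45. Dusp6 had one in 35, Etv5 in 32, Spry1 in 20, Spry2 in 6 and Fgf4 in 5.

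Set beside the RNA, the 8 genes with a RING1B peak in Parental -OHT cells held the 3 genes that rose with OHT in Parental cells and also Etv5, which fell, while the other gene that fell, Fgf4, had no RING1B peak. Of all 3922 tested genes with such a peak, 43.7% rose and 0.663%, or 26 genes, fell, and of the 14232 without a peak 7.27% rose and 2.16% fell. Etv5 was thus 1 of 26 genes with a RING1B peak that fell. Spry4, with scores of SUZ12 and H2AK119ub1 in the range of Fgf8 and Etv4, was at 2.77 and 5.44 CPM without and at 3.59 and 3.22 CPM with OHT in Parental cells.

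Fgf4 and Fgf15 start 49.2 kb apart on chromosome 7 (Fgf4 144847367 to 144865243, Fgf15 144896531 to 144900953, both on the plus strand, mm10), and Fgf3 begins 9.28 kb before Fgf4. RING1B, PCGF2 and SUZ12 peaks in Parental -OHT cells lay at the starts of Fgf3 and Fgf15 and not at Fgf4 between them. The RING1B peak at Fgf3 was 3.12 kb long with a score of 164.7 and that at Fgf15 2.44 kb long with a score of 116.3. With OHT in Parental cells Fgf3 was 1.13 ± 0.359 log2 higher (n = 2, adjusted p = 0.0196), short of the fold threshold, Fgf4 fell and Fgf15 rose. Ccnd1, which encodes cyclin D1 and starts 92.6 kb beyond Fgf4, was at -0.23 ± 0.220 log2 (n = 2, adjusted p = 0.46). Antisense genes overlap Fgf15 and the counting ignored strand, but Gm26793 had 0 to 6 and Gm39119 0 to 1 reads in the 12 libraries, against 39 to 62 for Fgf15 in the 4 libraries where it was high. In the Eed fl/fl libraries these antisense genes had 3 to 18 and 3 to 13 reads against 9 to 19 for Fgf15, so that the Fgf15 values there may hold antisense reads.

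**Figure D5:**
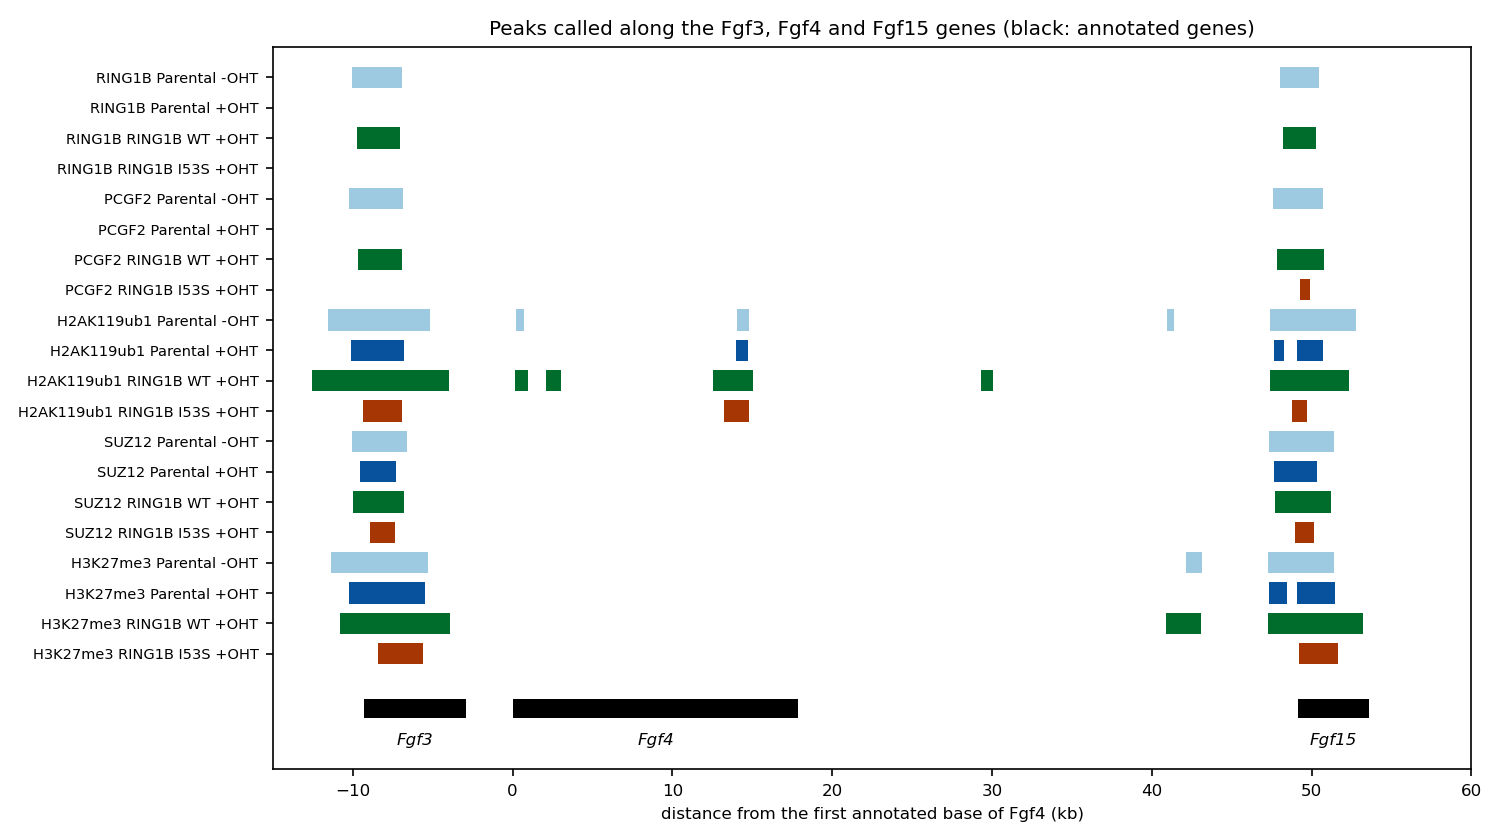
Peaks (bars) of 5 antibodies in 4 conditions (rows) along Fgf3, Fgf4 and Fgf15, in kb from the first annotated base of Fgf4 (horizontal axis), with the genes in black. RING1B, PCGF2, SUZ12 and H3K27me3 have peaks over the starts of Fgf3 and Fgf15, and H2AK119ub1 alone has peaks in the span of Fgf4, near 14 kb in all 4 conditions and within 3.02 kb of its first base in Parental -OHT and RING1B WT +OHT cells.

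The rest of the pathway was read from lists of other FGF ligand genes, receptors, the cascade from adaptor to ERK, and other ERK response genes. Their counts stand beside the shares of all tested genes that rose and fell, 15.1% and 1.83% in Parental, 12.8% and 1.04% in RING1B I53S and 1.34% and 0.0386% in RING1B WT cells. Of 18 other ligand genes 10 had enough reads to be tested. With OHT in Parental cells 3 of these 10 rose and 1 fell, with a median of 1.097 log2 against 0.027 log2 over all tested genes. A gene near 0 without OHT could be tested through +OHT libraries alone, so nothing is read from the counts and medians of these lists. Fgf9 (4.09 ± 0.912 log2, n = 2, adjusted p = 0.00207), Fgf18 (3.54 ± 0.990 log2, adjusted p = 0.00917) and Fgf13 (1.74 ± 0.424 log2, adjusted p = 0.00334) rose, and Fgf17 (-1.68 ± 0.273 log2, adjusted p = 0.000101), like Fgf8 a ligand of the Fgf8 subfamily, fell. Fgf9 was at 0.0815 and 0.124 CPM without OHT and at 1.79 and 1.95 CPM with OHT. Of 9 tested receptors and coreceptors 4 rose and none fell, with a median of 1.088 log2. The receptor genes Fgfr3 (3.85 ± 0.547 log2, n = 2, adjusted p = 2.44e-05) and Fgfr2 (3.27 ± 0.378 log2, adjusted p = 2.54e-06) and Flrt1 (2.16 ± 0.529 log2, adjusted p = 0.00353), whose product binds FGF receptors, had the largest changes. Fgfr2 was at 1.71 and 2.102 CPM without OHT and at 20.7 and 15.9 CPM with OHT.

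Of the 19 genes of the cascade, among them the adaptor genes Frs2 and Grb2, none passed both thresholds in Parental, I53S or WT cells, and their median with OHT in Parental cells was -0.048 log2. In Eed fl/fl cells no gene of any of the 4 lists passed. In the edgeR fit 1 cascade gene was higher and 2 were lower at an adjusted p under 0.05 alone in Parental cells. By that rule 21.9% of all tested genes were higher and 12.4% lower. Of 18 tested ERK response genes 6 rose and 2 fell in Parental cells. Egr2 (5.64 ± 1.39 log2, n = 2, adjusted p = 0.00368), Fos (5.03 ± 1.32 log2, adjusted p = 0.00586) and Egr1 (4.10 ± 1.51 log2, adjusted p = 0.0417) had the largest rises, and these are the immediate-early RNAs that were high in the replicate 2 libraries with OHT. Egr1 was at 10.8 and 11.2 CPM without OHT and at 9.22 and 368 CPM with OHT, so that its rise rested on 1 library. Etv1 (-1.99 ± 0.676 log2, n = 2, adjusted p = 0.0274), the third ETS gene of the Etv4 and Etv5 family, and Myc (-1.62 ± 0.282 log2, adjusted p = 0.000188) fell. In RING1B I53S cells 3 other ligand genes, 3 receptor genes and 6 ERK response genes rose and 0, 0 and 1 fell, and in RING1B WT cells 0, 1 (Fgfr3, 3.06 log2, adjusted p = 0.0243) and 1 rose and none fell.

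The RNAs whose pattern over the 12 libraries was most like those of Fgf4, Fgf8 and Fgf15, by Pearson correlation of log2(CPM + 1), were Epn3 (0.993) and Procr (0.991) for Fgf15, Pcsk1n (0.983) and Fhad1 (0.973) for Fgf8, and Zfp518a (0.972) and Zfp970 (0.959) for Fgf4. The points are libraries of 3 lines that share their OHT treatment, so these values are descriptions of likeness only.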

How the data were processed

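RNA-seq (SMART-seq2) and ChIP-seq of mouse ESCs were read from the deposited files. For RNA the authors aligned with STAR 2.7, counted with featureCounts on GENCODE M21 gene names (GRCm38) without regard to strand, and deposited the raw counts. Peaks were called by the authors for each library with Bowtie 1.2.2 alignments to mm10 and MACS2 2.1.1, and the deposited score is −log10 of the p-value, with no score under 10. Read depth and spike-in scaling of the ChIP libraries were not used here. Tables of normalized counts and the authors' own comparisons (log2 fold changes and adjusted p-values) were not used. All count columns matched a sample. In R 4.3.3, edgeR 4.0.16 (TMM, filterByExpr, quasi-likelihood test, Benjamini-Hochberg) was fitted to 12 libraries in 6 groups, and to the 4 Eed fl/fl libraries apart, with 18154 and 25170 genes tested. Thresholds were an adjusted p under 0.05 and a change of at least 1.5 log2 units, as in the study. The standard error is the log2 fold change divided by the root of the F statistic. Fits were tested on simulated data. A peak counted as near a gene when it overlapped the gene with 2.5 kb on each side by at least 1 bp. DESeq2 1.42.0, other scalings and filters, left-out libraries and other peak rules were alternatives. Genes named beyond the 10 are, per list, up to 3 in each direction with the largest change among those past both thresholds in Parental cells, the 2 most correlated RNAs per ligand gene (that of Fgf5 is not reported here), neighbours of Fgf4 and the deleted genes. The 10 genes and all lists were chosen with earlier results of these data known. Python 3.11.15 with pandas 2.3.3 and numpy 2.4.6 was used for peaks and matplotlib 3.10.9 for figures.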

Additional observations from a re-analysis of the deposited data

Results flagged for a closer look

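The effect of OHT differed between RING1B WT and Parental cells for 2 of the 10 genes, by an interaction test in the edgeR fit. For Etv4 the difference was -4.35 log2 (WT minus Parental, SE 0.743, n = 2 libraries per group, adjusted p = 0.00317): Etv4 was higher in both Parental +OHT libraries than in either -OHT library, and lower in both RING1B WT +OHT libraries than in either -OHT library. For Etv5 it was 1.99 log2 (SE 0.239, n = 2, adjusted p = 0.000113), with a fall in both Parental +OHT libraries. Both differences kept their side of the thresholds in every alternative run, including the fit without the 3 replicate 2 libraries with OHT, where they were -5.18 and 2.03 log2. With 1 library left out the Etv4 difference was -3.71 log2 without RING1B WT +OHT replicate 1 and -5.36 log2 without replicate 2.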

How the results depend on the processing

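Of 518 recomputed single-gene differences 438 kept their direction and their side of the thresholds, 45 lost and 13 gained a call, and 22 changed sign, all of them in uncalled genes. Without the 3 replicate 2 libraries with OHT, a setting chosen after seeing the data, 3 of the 10 genes were called in Parental, 0 in RING1B WT, 2 in RING1B WT against Parental and 1 in RING1B I53S against RING1B WT with OHT, from 5, 1, 4 and 4. With no fold threshold 1 gene was called in I53S against Parental with OHT, beside 0.303% of all tested genes. In I53S against WT with OHT it was 7, beside 13.3%. With the fold threshold and only the libraries of the 2 groups in the fit, the latter comparison gave 0. Leaving out 1 library at a time gave 3 to 5 calls in Parental (3 without +OHT replicate 2), 0 to 1 in RING1B WT (0 without any but -OHT replicate 1), 2 to 3 in WT against Parental and 0 to 2 in I53S against WT with OHT, and 0 to 1 in I53S against Parental without OHT (1 without Parental -OHT replicate 2). The cause of these changes was not tested, except that fewer libraries leave a test with less power by construction.

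The sign changes were in I53S Spry1 (0.01 log2, -0.37 without the 3 libraries), I53S Spry4 (-0.01 log2, 0.02 with 2 groups) and Eed fl/fl Fgf4 (0.04 log2, -0.06 with DESeq2 and with RLE size factors, -0.003 with no filter). With 1 library left out the ranges that crossed 0 were -0.70 to 0.26 for Parental Spry4, -0.34 to 0.28 and -0.14 to 0.11 for I53S Spry1 and Spry4, and -0.90 to 0.55 and -0.50 to 0.37 for WT Fgf5 and Spry1. In Eed fl/fl cells they were -0.17 to 0.18 for Fgf4, -0.20 to 0.68 for Fgf15, -0.36 to 0.74 for Spry4 and -0.08 to 1.21 for Etv4.

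Replicate numbers were shared between groups only as numbers (correlation of replicate differences 0.088 to 0.344 in the RING1B lines, 0.502 in Eed fl/fl). With the replicate number as a block the number of the 10 genes called was as without it in every comparison (5 in Parental, 5 in I53S and 1 in WT cells, for example) but 1: the difference of the OHT effect between WT and Parental rose from 2 to 3 genes (Spry4, -2.47 log2, adjusted p = 0.0357), and I53S Spry1 was -0.01 log2. In Eed fl/fl cells the block left the changes of Spry2 (-0.86 log2) and Etv5 (-0.44 log2) under the fold threshold but moved their adjusted p from 0.813 to 1.14e-07 and from 0.833 to 0.00421. The labels do not say whether a number marks a shared culture or clone there, and there are only 2 pairs. The share of all tested genes that passed with this block is not given here, so nothing is read from these 2 changes.

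A peak score of at least 20 left 31 of 55 gene and condition pairs with a PCGF2, CBX7, PCGF6 or RYBP peak and 45 of 71 with a SUZ12 or H3K27me3 peak. Each ChIP condition had 1 library, apart from 4 with 2, and the counts of Fgf5, Fgf8, Fgf15 and Etv4 were low without OHT, which limits their fold changes.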
